A study of Mus musculus with 24 samples.

Results

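Beige fat is white adipose tissue in which some adipocytes hold many mitochondria and Ucp1, the mitochondrial protein that lets protons leak back across the inner membrane so that respiration gives heat. In mice it appears mainly in subcutaneous pads, it is induced by noradrenaline released from sympathetic nerves in the cold, and its amount differs between animals and strains. Around Ucp1 stand genes for lipid droplets, fatty acid oxidation, the respiratory chain and the import of glucose, and in such pads fat is also made anew to be burnt. The subcutaneous pads of a mouse array study were compared here by the amount of that programme they held.

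Fat of 2 depots, subcutaneous (inguinal) and visceral, was profiled in 12 mice, 1 array per sample and 24 arrays in all, in 8 groups of 3 by genotype, sex and depot. The genotypes were wild-type and aP2-Tagln2, in which aP2, the promoter of the fat cell gene Fabp4, names the driver of a Tagln2 transgene; Tagln2 encodes the actin-binding protein transgelin-2, and macrophages can use the same promoter. The labels give no strain, age, diet or housing temperature. They call the visceral depot epididymal in females too, and for subcutaneous samples 1 label names visceral and inguinal fat together. The 12 subcutaneous arrays were split by their own log2 value of Ucp1. An array above 8 was called high and an array below 5 was called low, which placed 4 arrays in each group and left out 4 between them, so the comparison used 8 of the 24 arrays.

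Because the arrays were chosen by Ucp1, every difference between the high and low subcutaneous arrays is a description and carries no test. Tests were made only on the visceral arrays of the same mice, which had no part in the choice, and on the groups given by the labels, which include subcutaneous Ucp1 by sex and genotype, and on the relation of subcutaneous to visceral Ucp1 over mice. The high arrays came from the aP2-Tagln2 females 60 and 173, the wild-type female 170 and the wild-type male 162. The low arrays came from the aP2-Tagln2 female 135 and the aP2-Tagln2 males 106, 130 and 158. All 4 arrays between the thresholds were wild-type, from the females 140 and 169 and the males 159 and 161. The low group thus held no wild-type mouse and 3 males of 4, and the high group 3 females of 4, so that the split, genotype and sex cannot be told apart in these 8 arrays.

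The values are log2 intensities, with array medians between 5.45 and 5.67, and 1 log2 unit is a 2-fold difference. The SD of the values within an array was 1.46 to 1.73 in the low and 1.65 to 1.76 in the high subcutaneous arrays. Tagln2 marked the genotype in every subcutaneous array, at 9.49 to 10.81 in the 6 aP2-Tagln2 mice and 7.22 to 8.47 in the 6 wild-type mice. It was the only gene of 13101 (0.00763%) to pass the genotype test in this depot (limma adjusted p = 0.00969). Fabp4 itself lay between 12.36 and 12.74 in all 12 arrays, and the high and low groups overlapped.

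The arrays of mouse 60 went against their depot labels. Mammary ducts run through the inguinal pad of female mice, and mesothelium covers visceral fat. In the other 5 females the mean of 12 mammary epithelial genes was 6.61 to 7.22 in subcutaneous arrays and 4.42 to 5.02 in visceral ones. In mouse 60 it was 4.31 in the array labelled subcutaneous and 7.18 in the array labelled visceral. The mean of 11 mesothelial genes was 6.08 in its subcutaneous array, above the 4.72 to 5.37 of the other 11, and 5.43 in its visceral array, below the 6.21 to 7.49 of the other 11. The epithelial adhesion gene Epcam read 3.56 and 8.49 in the subcutaneous and visceral arrays of mouse 60, against 8.17 and 3.97 in mouse 173. The labels were kept, and values without mouse 60 are given beside the results that rest on it. The Ucp1 value of its array labelled visceral, 7.28, lies between the thresholds.

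**Figure D1:**
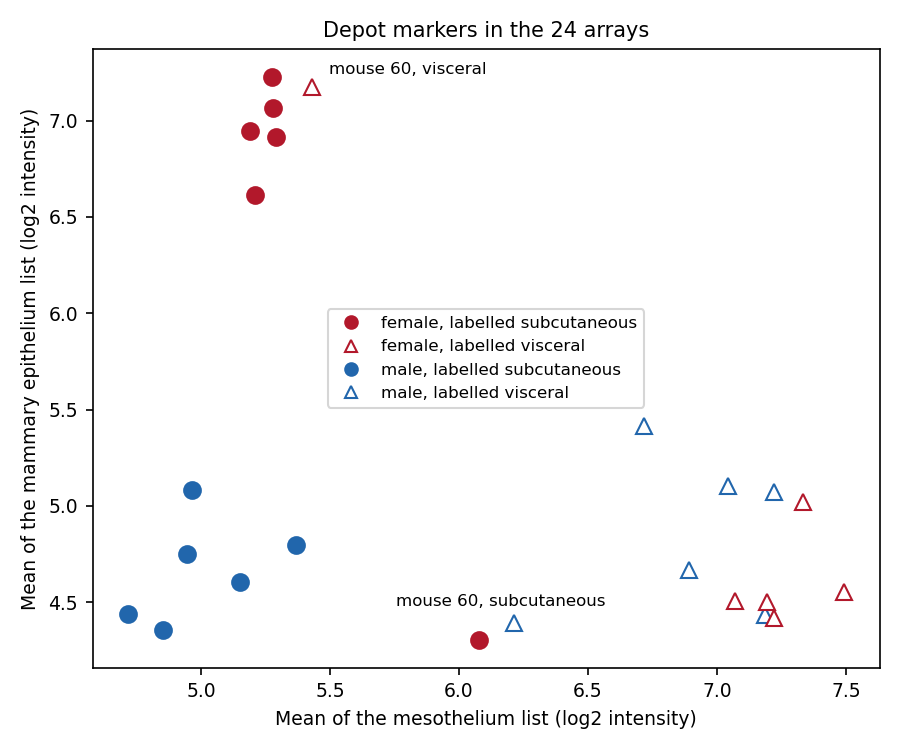
Mean log2 intensity of the mesothelium list (horizontal axis) and of the mammary epithelium list (vertical axis) in each of the 24 arrays, coloured by sex, with filled circles for arrays labelled subcutaneous and open triangles for visceral. The visceral-labelled array of mouse 60 lies with the subcutaneous arrays of the other females, and its subcutaneous-labelled array, at 6.08 and 4.31, lies by the visceral arrays.

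Ucp1 spanned a wide range in subcutaneous fat. The low mice 158, 106, 135 and 130 read 3.50, 3.59, 3.61 and 4.06. The high mice 173, 162, 170 and 60 read 8.67, 8.86, 9.71 and 10.50. The nearest arrays outside the groups were mouse 161 at 5.06, just above the low threshold, and mouse 169 at 6.50, below the high one, with mice 140 and 159 at 5.48 and 6.27. No low array reached the level set as detected, the 40th percentile of its own array (4.94 to 5.31 over the subcutaneous arrays), so no fold is given for Ucp1.

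**Figure D2:**
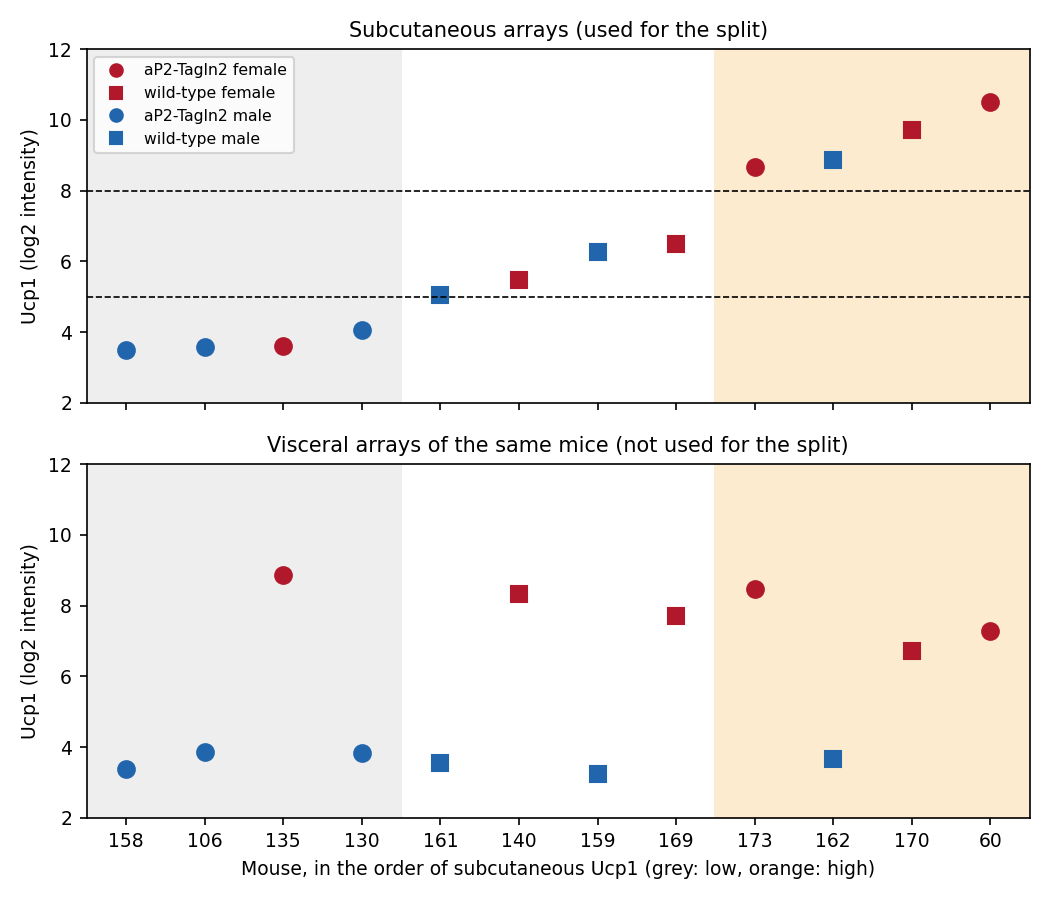
Ucp1 as log2 intensity in each mouse's subcutaneous array (upper panel, dashed lines at the thresholds 5 and 8) and visceral array (lower panel), with mice in the order of subcutaneous Ucp1, colours for sex and shapes for genotype. In subcutaneous fat the 4 low mice sit at 3.50 to 4.06 and the 4 high mice at 8.67 to 10.50; in visceral fat all 6 females sit above all 6 males.

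The proximal promoter of Ucp1 is shown because it is the gene that sorted the arrays; its well-known enhancer lies farther upstream, outside this stretch. The 250 bases before the RefSeq start on GRCm38.p6 chr8:83290098-83290347, plus strand, hold none of the longer motifs searched, which are named with the respiratory genes, but do hold the short form TGACG, left in lower case here.
Ucp1: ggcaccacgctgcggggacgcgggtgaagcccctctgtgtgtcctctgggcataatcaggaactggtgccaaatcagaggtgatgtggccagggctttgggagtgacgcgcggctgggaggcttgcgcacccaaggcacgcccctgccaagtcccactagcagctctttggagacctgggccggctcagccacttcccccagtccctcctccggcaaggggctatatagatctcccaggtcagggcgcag

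Ucp1 in the visceral arrays of these mice went with sex. The 4 high mice read 6.71 (mouse 170), 7.28 (mouse 60), 8.47 (mouse 173) and 3.65 (mouse 162), and the 4 low mice 8.87 (mouse 135), 3.85 (mouse 106), 3.84 (mouse 130) and 3.37 (mouse 158). The groups overlapped, and the difference of means was 1.55 (exact two-sided permutation test, p = 0.457; the smallest p this design allows is 0.0286). The single male among the high mice had the visceral level of the other males, and the single female among the low mice had the highest visceral level of all 12. Over all visceral arrays Ucp1 was 7.90 ± 0.81 (SD, n = 6) in females and 3.58 ± 0.25 (SD, n = 6) in males. That difference of 4.32, with no overlap, had p = 0.00216 in an exact two-sided permutation test, the smallest it can give. After Benjamini-Hochberg adjustment over the 7 exact tests of Ucp1 by sex or genotype, this permutation p was 0.0152. The male values, 3.23 to 3.85, were under the level set as detected in their visceral arrays (4.97 to 5.05). The male mean and the difference are thus bounds only.

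In subcutaneous fat the same comparison gave 7.41 ± 2.66 (SD, n = 6) in females and 5.22 ± 2.07 (SD, n = 6) in males, a difference of 2.19 within the spread (exact permutation test, p = 0.132, adjusted p = 0.308). The aP2-Tagln2 males read 3.50, 3.59 and 4.06 and the wild-type males 5.06, 6.27 and 8.86, so these groups did not overlap (difference -3.01; exact permutation test, p = 0.1, the smallest 3 against 3 can give). Females of the genotypes overlapped, with a difference of 0.36 (exact permutation test, p = 0.9) that rested on mouse 60 and was -1.09 without it. The difference between the sexes was 1.57 without that mouse.

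Of 13100 genes above the low-value filter, Ucp1 left out, 1539 (11.7%) were higher in every high array than in every low one, and 342 (2.61%) were lower. With a difference of at least 1 log2 unit as well, 402 (3.07%) were higher and 33 (0.252%) lower. The shares of 11.7% and 2.61% are the base for the list counts without overlap below, unless another setting is named. Without mouse 60 the counts of 402 and 33 became 331 and 27, and without mouse 158 they became 496 and 361. The upper 6 against the lower 6 arrays gave 6 and 0. In bulk tissue, fewer cells of a type and less RNA per cell cannot be told apart, so none of these values says whether more beige adipocytes were present or each expressed more.

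Most thermogenic genes were higher in the arrays chosen for high Ucp1. Of the 25 thermogenic core genes measured, 4 (Cpn2, Slc27a2, S100b and Ckmt2) did not pass the filter, and of the 20 that passed besides Ucp1, 14 were higher without overlap and none lower. For 2 of the 14, Elovl3 and Dio2, no low array reached the filter level, so that they passed only through arrays where they are high and their place was fixed by the filter; the other 12 had at least 1 low array above it. The median difference over the 20 was 1.29, against 0.03 over all genes. Cidea, a lipid droplet protein of brown and beige adipocytes, read 6.04 to 7.73 in the low arrays and 8.66, 8.87, 9.42 and 9.90 in mice 173, 60, 170 and 162. Its difference was 2.66, or 6.30-fold, and the highest array was the only male of the high group. Ppargc1a, the coactivator that drives mitochondrial genes, read 4.94 to 6.03 in the low arrays and 7.26 to 7.99 in the high ones, 4.56-fold. Elovl3, an elongase of very long chain fatty acids that marks brown fat, was not above the filter level in any low array (3.36 to 4.54) and read 6.21 to 7.25 in the high ones.

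The oxidative end of the programme held isoforms otherwise known from muscle and brown fat. Cpt1b, the muscle form of the enzyme that brings fatty acids into mitochondria, was 5.28 to 5.78 in low and 7.10 to 7.93 in high arrays, 3.91-fold. Cox8b, a subunit of cytochrome oxidase, was 5.71 to 6.53 and 7.83 to 8.38, 3.55-fold. The related subunit gene Cox7a1 differed by 1.51 and Otop1, a proton channel gene found in brown fat, by 2.07, both without overlap. Dio2, the deiodinase that makes active thyroid hormone, was 4.17 to 4.73 in the low arrays, under the filter level, and 5.31, 5.99, 6.19 and 7.26 in mice 173, 162, 170 and 60.

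Some pads contained skeletal muscle RNA, and its part in the Cpt1b difference was not tested. The mean of 15 skeletal muscle genes was 9.51 and 9.09 in the high mice 170 and 173 and 5.73 and 4.96 in the high mice 162 and 60, while Cpt1b was 7.22 and 7.10 in the first pair and 7.93 and 7.71 in the second. The low mice 135 and 158, at 8.66 and 7.38 for muscle, had Cpt1b at 5.63 and 5.78. Casq1, calsequestrin of fast muscle, read 9.88 and 8.44 in mice 170 and 173, 4.69 and 4.25 in mice 162 and 60, and 7.95 in the low mouse 135. Of the 13 creatine and calcium cycling genes that passed the filter, 1 was higher without overlap, against 11.7% of all genes. The median difference of the 13 was 0.09.

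**Figure D3:**
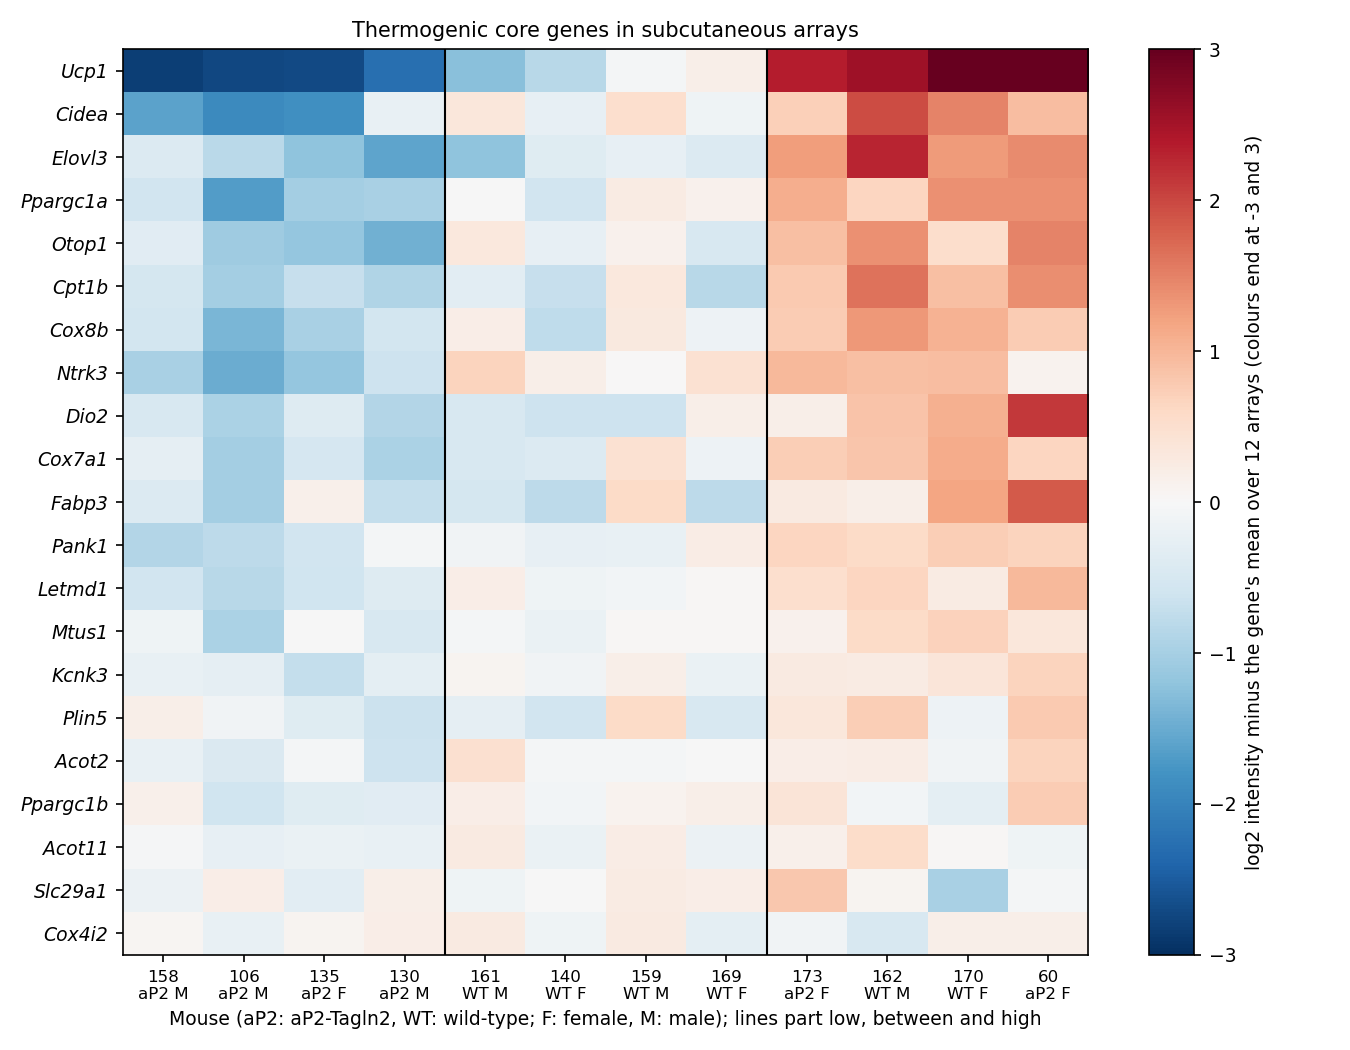
Log2 intensity of the 21 thermogenic core genes that passed the filter, each minus its mean over the 12 subcutaneous arrays (colour scale in log2 units, ending at -3 and 3), with arrays in the order of Ucp1 and vertical lines between the low, middle and high arrays. Genes from Ucp1 to Kcnk3 step up across the lines, and the bottom rows, from Plin5 to Cox4i2, show no such step.

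Not every gene linked to beige fat was apart. Ppargc1b, the sister of Ppargc1a, overlapped (6.44 to 7.19 in low and 6.74 to 7.79 in high arrays, difference 0.48), and the cytochrome oxidase subunit gene Cox4i2 differed by -0.09. Of 22 brown and beige transcription factors 19 passed the filter. Against 11.7% of all genes, 3 of the 19 were higher without overlap. These were Pparg, the master regulator of adipocytes (9.27 to 9.70 against 10.30 to 10.63), Ppara, its fatty acid oxidation counterpart (difference 1.19), and Klf15 (difference 0.95). Prdm16, which commits cells to brown and beige fate, did not pass the filter, at 4.55 ± 0.37 in low and 4.41 ± 0.32 in high arrays (SD, n = 4 each). Ebf2, a marker of beige precursors, overlapped with a difference of 0.41.

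Surface and selective markers used to name beige cells did not go with Ucp1 as a group. Of the 14 that passed the filter, 1 was higher without overlap and 2 were lower, against 11.7% and 2.61% of all genes. The median difference was -0.10. The higher gene was Slc36a2, an amino acid transporter, at 5.96 to 7.44 in low and 7.87 to 8.81 in high arrays. The lower genes were Cd40, at 6.26 to 7.36 and 5.12 to 5.84, and Tnfrsf9, which encodes CD137, with a difference of -0.73. Tmem26, the other widely used surface marker, was lower in the mean by 0.63 with overlap. Cd40 and Tnfrsf9 are also receptors of lymphocytes and other immune cells, whose genes were higher in the low arrays, and the part of those cells was not tested. With the 2 arrays richest in lymphocyte RNA left out, 2 members were lower and 1 higher without overlap, against 13.1% and 21.6% of all genes in that setting.

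Among secreted factors, Nrg4, a neuregulin released by brown and beige fat, read 8.81 to 9.36 in low arrays and 10.21 to 10.31 in high ones. Its high values lay close together, with a difference of 1.16. Angptl8, a lipase inhibitor induced by feeding, was the only other of the 10 secreted factors tested to be apart, at 4.79 to 5.73 and 5.86 to 7.87. Over all genes 11.7% were higher without overlap. Fgf21 and Bmp8b did not pass the filter. Against 11.7% of all genes, 5 of 9 genes tested in the adrenergic pathway were higher without overlap. They included the adenylyl cyclase Adcy3 (5.28 to 5.47 against 6.30 to 6.65), the protein kinase A subunit Prkaca (difference 1.04) and Gadd45g (difference 1.25), which is induced by adrenergic stimulation of brown fat. Adrb3, the main beta receptor of mouse adipocytes, was not analysed here, and Th, the noradrenaline synthesis enzyme of sympathetic nerves, did not pass the filter (4.92 ± 0.16 in low and 4.51 ± 0.42 in high arrays; SD, n = 4 each).

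Genes of fat synthesis held some of the largest differences. Of 17 fatty acid synthesis genes, all above the filter, 13 were higher without overlap, with a median difference of 1.42. Elovl6, which lengthens palmitate to stearate, read 6.67, 8.10, 8.31 and 8.40 in the low mice 106, 130, 158 and 135, and 11.22 to 11.42 in the 4 high arrays. The low arrays were thus far apart and the high ones close together, and the difference of 3.47 was the largest after that of Ucp1. Acly, which makes cytosolic acetyl-CoA from citrate, differed by 2.41, the acetyl-CoA synthetase gene Acss2 by 2.18, malic enzyme Me1 by 2.12, the citrate carrier gene Slc25a1 by 1.95, Fasn, the fatty acid synthase, by 1.90 and Acaca, the rate-limiting acetyl-CoA carboxylase, by 1.86. Scd1, the main desaturase, differed by only 0.37 (12.43 ± 0.15 against 12.80 ± 0.06; SD, n = 4 each), close to the top of the scale, where the largest value on any array was 13.08.

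For 12 of the 17 genes the SD was larger over the low than over the high arrays. The SD of Fasn was 0.13 over the high and 0.94 over the low arrays, and that of Acss2 0.16 and 0.92. Mouse 106 was the lowest for Elovl6, Fasn, Acss2 and Me1, and mouse 158 the highest low array for Fasn, Acly, Acss2 and Me1. Slc2a5, the fructose transporter, read 3.72 to 5.10 in low and 7.31 to 8.61 in high arrays. No low array reached the filter level for it, so its low values are a bound only and neither a fold nor a rank is given.

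Nearly all genes of the respiratory complexes were higher in the high arrays. Of the 31 respiratory chain and ATP synthase genes, 29 were higher without overlap, with a median difference of 1.03, and 16 of those differed by 1 or more. The list mean was 9.15 to 9.24 in the high arrays, 8.53 to 8.90 in the arrays between and 8.06 to 8.34 in the low ones, with no overlap between the 3 sets. Complex III subunit gene Uqcrc1 differed by 1.47 and the complex I genes Ndufs7 and Ndufs8 by 1.43 and 1.35. The exceptions were Cox8a and Cox6a2, the latter a heart and muscle subunit at a difference of -0.04. The citric acid cycle list had 13 of 15 members apart, with a median difference of 1.15, led by pyruvate carboxylase (Pcx, 2.05), and the glycolysis list 12 of 15, with a median difference of 1.19. In that list Slc2a4, the insulin-regulated glucose transporter, was 2.83-fold higher, while Slc2a1 and Hk1 overlapped.

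Fatty acid oxidation had 17 of 21 members apart, with a median difference of 1.04. Pdk4, which turns pyruvate away from oxidation, read 6.38 to 7.41 in low and 8.65 to 9.29 in high arrays. Slc25a20, the carnitine carrier, differed by 1.73 and Hadhb, of the trifunctional protein, by 1.37. Cpt1a, the liver form of the entry enzyme, was level (-0.03), so the muscle form Cpt1b and the liver form Cpt1a differed in this respect. Glycerol and triglyceride genes had 10 of 22 members apart, such as Agpat2 (1.89) and Dgat1 (1.72), enzymes of triglyceride assembly. Without mouse 158, 19 of the 22 were higher without overlap, against 15.2% of all genes in that setting.

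General adipocyte genes were higher too, by less. Of 17 adipocyte markers, 8 were higher without overlap, none lower, and the median difference was 0.80; without mouse 158, 15 of the 17 were higher without overlap, against 15.2% of all genes in that setting. The mean of the list was 9.96 to 10.05 in mice 135, 130 and 106, 10.54 in the low mouse 158 and 10.54 to 11.27 in the high arrays. Adipocyte RNA therefore moved with the split, and its part in the differences of the thermogenic and metabolic lists was not tested. Between mice 158 and 170, whose adipocyte means were both 10.54, Cidea was 6.34 and 9.42, Ppargc1a 6.03 and 7.99, and Elovl6 8.31 and 11.41. This is a single pair, an aP2-Tagln2 male and a wild-type female, which also differed in skeletal muscle RNA. These genes were already apart in the split, so the pair is a description only.

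By Pearson r over the 12 log2 values, given as a description since the arrays share a normalization and vary together in cell make-up, the highest were Ddhd2, a phospholipase (0.98), Uqcrfs1, the Rieske protein of complex III (0.96), the glycolytic Pgk1 (0.96) and fumarase, Fh1 (0.95). Chchd3, Ralgapa2, Gpd2, Ndufa9, Ndufs8 and Ppargc1a followed, down to 0.94. Ddhd2 read 7.25 to 7.44 in the low arrays, 7.74 to 8.33 in those between and 8.66 to 8.83 in the high ones, an order with no overlap. The lowest were Tnfsf11, the cytokine RANKL (-0.92), Lmo2 (-0.91), Wasf3 (-0.90), Tmem163 (-0.88) and Il9r (-0.87).

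Promoters of 3 respiratory genes and of Dio2 are shown because these genes stood together, and because the letters bound by NRF1, a factor of mitochondrial genes, and by cAMP-responsive factors can be read in them. Searched on both strands in the 300 bases from 250 before to 50 after the RefSeq start were the NRF1 element, TGACGTCA (CRE) and its shorter form TGACG, which lies within it, TCAAGGTCA (ERR element), the DR1 element and TCACNCCAC (SRE-like). The motifs were chosen with the differences known. Promoters were matched for 23 of the 31 respiratory genes, and 7 of these (30.4%) held the NRF1 letters, against 1070 of 10536 genes tested (10.2%) and 4.60% of all 32851 promoters. Among the 402 genes higher by at least 1 log2 unit, 39 of 334 with a promoter held them (11.7%), near the share over genes tested. The short form TGACG was in 31.1% of those 334 and in 32.2% of the genes tested (20.8% of all promoters). CRE was in 3.59% and 3.18% (1.79% of all promoters), and the ERR element in 0.898% and 0.38% (0.423% of all promoters). DR1 was found in none of the 334 (0.04% of all promoters), and the SRE-like letters were in 2.40% and 1.44% (1.24% of all promoters). These are matches of letters and not sites shown to be bound.

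The 250 bases before the start are printed from RefSeq (GRCm38.p6), 5′ to 3′ on the gene's strand, with matches to the longer motifs in capitals: NRF1 in Sdhd (chr9:50603850-50604099, minus strand) and Cox6a1 (chr5:115348959-115349208, minus strand), and CRE in Cycs (chr6:50566570-50566819, minus strand) and Dio2 (chr12:90739039-90739288, minus strand).
Sdhd: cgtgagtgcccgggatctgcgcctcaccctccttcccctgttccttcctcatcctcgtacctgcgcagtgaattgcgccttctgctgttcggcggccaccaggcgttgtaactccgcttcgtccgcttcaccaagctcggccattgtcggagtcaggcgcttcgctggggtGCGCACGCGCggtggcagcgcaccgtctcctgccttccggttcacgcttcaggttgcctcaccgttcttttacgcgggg
Cox6a1: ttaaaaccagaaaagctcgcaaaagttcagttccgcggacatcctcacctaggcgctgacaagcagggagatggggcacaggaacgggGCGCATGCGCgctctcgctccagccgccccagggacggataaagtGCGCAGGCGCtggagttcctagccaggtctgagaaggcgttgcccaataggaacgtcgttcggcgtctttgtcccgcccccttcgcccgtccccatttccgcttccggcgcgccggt
Cycs: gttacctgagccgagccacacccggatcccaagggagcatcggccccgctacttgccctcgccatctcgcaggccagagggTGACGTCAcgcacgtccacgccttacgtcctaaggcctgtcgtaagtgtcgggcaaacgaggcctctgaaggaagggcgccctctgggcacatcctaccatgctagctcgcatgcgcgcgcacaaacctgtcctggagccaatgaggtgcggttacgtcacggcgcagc
Dio2: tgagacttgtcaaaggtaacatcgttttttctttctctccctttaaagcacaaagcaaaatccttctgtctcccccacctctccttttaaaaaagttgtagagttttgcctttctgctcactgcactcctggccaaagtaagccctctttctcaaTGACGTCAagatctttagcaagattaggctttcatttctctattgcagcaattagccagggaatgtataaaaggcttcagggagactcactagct
Sdhd, the membrane anchor of complex II, differed by 1.22, Cox6a1, a cytochrome oxidase subunit, by 1.25, and Cycs, cytochrome c, by 1.05, each without overlap.

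Of the 11 lymph node stroma and vessel genes tested, 3 were lower without overlap (2.61% of all genes were). In the mean 8 were lower and 3 higher, and the median difference was -0.82. For 2 of the 3, Ccl19 and Tnfsf11, no high array reached the filter level. Among all genes lower without overlap, the largest difference was that of Cxcl13, the chemokine of B cell follicles, at 8.22 to 11.01 in low and 5.42 to 7.87 in high arrays (difference -3.03). Ccl8, a monocyte chemokine, differed by -1.88. The inguinal pad contains a lymph node, whose part in these differences was not tested. The mean of the B cell list was 7.94 and 7.84 in the low mice 130 and 106, 6.48 in the low mouse 135 and 5.30 in the low mouse 158, against 6.34 in the high mouse 170 and 4.84 to 5.04 in the other high mice. The wild-type females between the thresholds, 169 and 140, lay at 7.36 and 7.18, below mice 130 and 106 and above the others named here.

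The lymphocyte lists therefore overlapped between the groups although their medians were low. Of 15 B cell genes 14 had a lower mean in the high arrays, with a median of -1.90, and 1 was lower without overlap; of 14 T cell genes all had a lower mean, with a median of -1.40. Without mice 106 and 130 these medians were -0.79 and -0.53. The medians of the thermogenic, fatty acid synthesis and respiratory lists were 1.19, 1.30 and 0.96 without them, against 1.29, 1.42 and 1.03 with them. Without mouse 158, the low array poor in lymphocyte RNA, 10 of the 15 B cell genes and 9 of the 14 T cell genes were lower without overlap, against 9.44% of all genes in that setting.

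Lists of other tissues in the pads were mixed. All 15 skeletal muscle genes overlapped, with a median difference of 0.75 that became 1.66 without mouse 60 and -0.50 without mice 106 and 130. Macrophage genes were lower in the mean in all 13 tested, with a median of -0.44, and 1 of them, Clec10a, was apart; the list mean was 6.70 to 7.44 in high and 7.35 to 7.88 in low arrays. Of 14 smooth muscle genes 12 had a higher mean, with a median of 0.60 and none apart. Of 10 mammary epithelial genes tested 8 had a higher mean, with a median of 0.68 and none apart. Without mouse 60 these were 9 of 10 and 1.35, and without mice 106 and 130 they were 5 of 10 and -0.10. The part of epithelial RNA in the split was not tested. Of 14 endothelial genes 13 had a higher mean in the high arrays. Only 1, the VEGF receptor gene Kdr, was without overlap (7.09 to 7.67 against 8.05 to 8.63), against 11.7% of all genes.

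**Figure D4:**
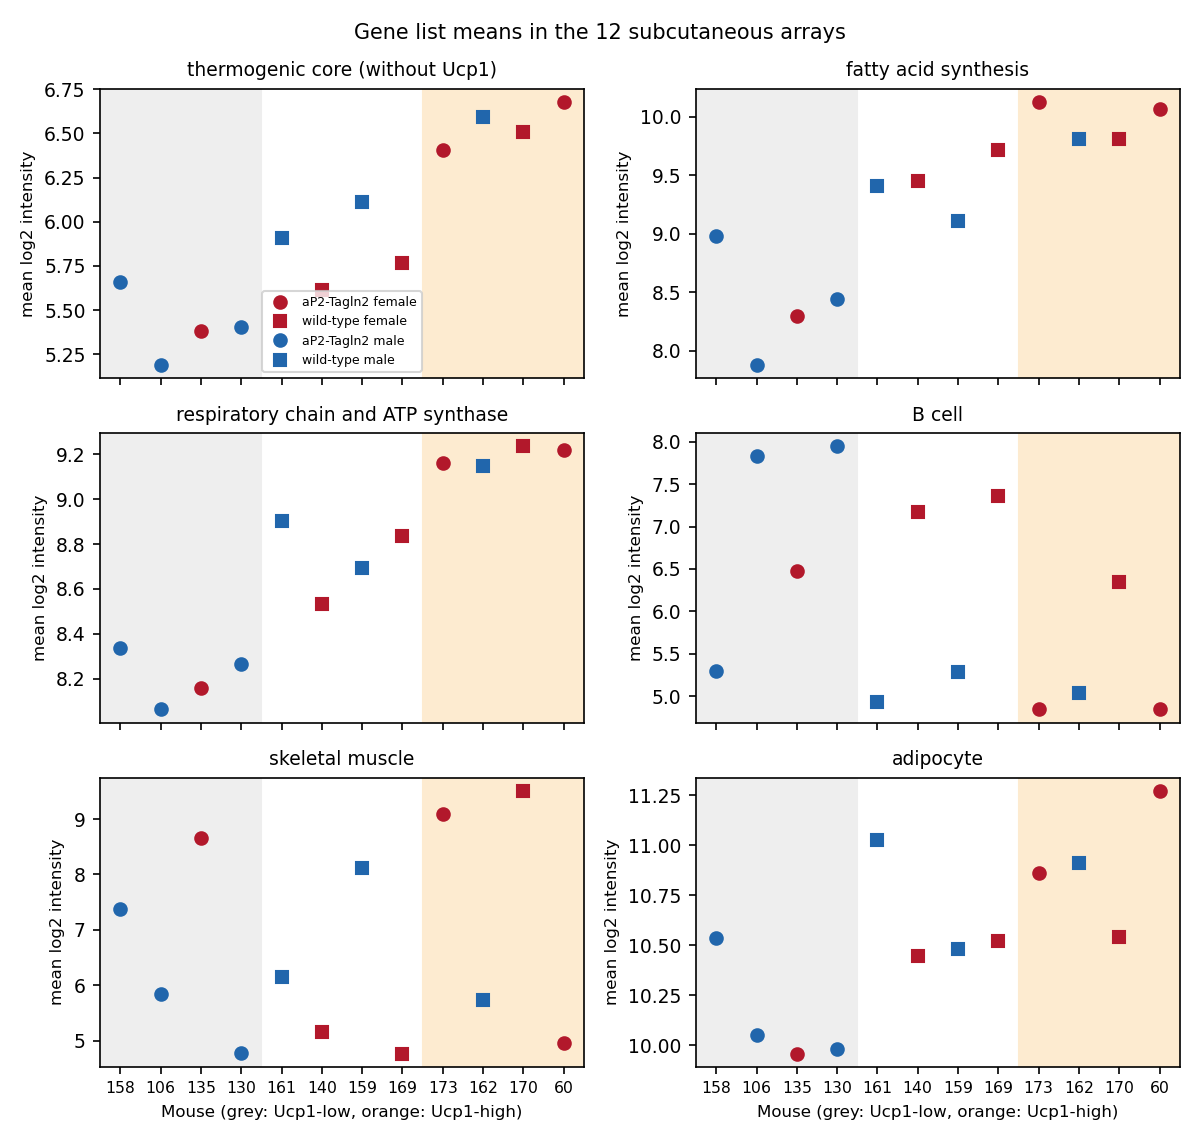
Mean log2 intensity of 6 gene lists in the 12 subcutaneous arrays, in the order of Ucp1, with grey for the low and orange for the high arrays, colours for sex and shapes for genotype. The thermogenic, fatty acid synthesis and respiratory means of the high arrays lie above all low arrays, while B cell and skeletal muscle means are scattered across the order.

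The description was repeated in smaller sets of arrays. Among aP2-Tagln2 females, 60 and 173 against 135, the median differences were 1.21 for the thermogenic, 2.12 for the fatty acid synthesis and 0.96 for the respiratory list, with 1 array on the low side. Mouse 60 is 1 of the 2 high arrays of that set, which was not repeated without it. Among males, mouse 162 against the 3 low mice, Cidea differed by 3.19, Ppargc1a by 1.73 and Elovl6 by 3.60. That high array was wild-type and all 3 low ones aP2-Tagln2, so genotype and the split cannot be told apart there. In the full split of both sexes and genotypes, 3 high against 4 low arrays without mouse 60, the thermogenic, fatty acid synthesis and respiratory medians were 1.14, 1.40 and 0.999.

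The groups given by the labels were tested next. Genotype was averaged over the sexes. Of all 13101 genes, 49.4% had a higher mean in aP2-Tagln2 than in wild-type arrays. Lower means were found for 17 of 21 thermogenic genes (median -0.33), 16 of 17 adipocyte genes and all 17 fatty acid synthesis genes (median -0.51). The same held for 30 of 31 respiratory, 20 of 21 fatty acid oxidation and all 15 citric acid cycle genes. All 14 T cell and 13 of 15 B cell genes had a higher mean. No gene but Tagln2 passed limma's adjusted threshold (250 genes had an unadjusted p under 0.05). These list counts include mouse 60, and their values without it are not given. Sex changed 158 genes (1.21%) in subcutaneous fat, 108 higher and 50 lower in females, among them the oxytocin receptor gene Oxtr (2.14, SE 0.19, limma adjusted p = 6.55e-05) and the complement gene C7 (-2.34, SE 0.15, limma adjusted p = 8.02e-06). None of the 21 thermogenic and none of the 17 fatty acid synthesis genes was among them, while 6 of 10 mammary epithelial genes were, all higher in females. Without mouse 60 the count over all genes was 274, of which 212 were higher.

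The difference between the genotype effects of the sexes, female minus male, gave no call among 13101 genes (0%; 1613 with an unadjusted p under 0.05; lowest limma adjusted p = 0.151). All 21 thermogenic genes had a positive value, with a median of 1.12, that is, the aP2-Tagln2 mice were relatively higher in females than in males; over all genes 54.5% were positive, with a median of 0.06. B cell genes ran the other way, with a median of -3.74. Ucp1 itself had 3.38 (SE 2.12, limma adjusted p = 0.536). Without mouse 60 again no gene passed. All 21 thermogenic genes stayed positive, their median was 0.94, and Ucp1 had 1.92 (SE 1.95). The number of calls depended on mouse 135, the aP2-Tagln2 female that its own Ucp1 value placed in the low group. Without mouse 135 only Ucp1-high aP2-Tagln2 females remain. The genes that then passed were looked at after the data were seen and are a description, not a test of thermogenic genes. In that fit 706 genes passed, 483 positive (3.71% of 13025) and 223 negative (1.71%). They included Otop1 (2.83, SE 0.58, limma adjusted p = 0.0272), Letmd1 (1.53, SE 0.35, limma adjusted p = 0.0322), 7 of 31 respiratory genes on the positive side and 12 of 15 B cell genes on the negative side. Ucp1 did not pass (5.37, SE 1.58, limma adjusted p = 0.0673). Without mouse 158 the count was 1247, of which 1089 (8.39% of 12974) were negative and none thermogenic.

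Depot changed far more genes, 1530 higher (11.2%) and 3539 lower (25.9%) in subcutaneous than in visceral fat of the 12 mice, of 13688 tested. Without mouse 60 the counts were 1961 and 3964. This fit took the arrays of a mouse as independent, and the count with the mouse as a block is given at the end. Thermogenic genes were split. Otop1 (1.21, SE 0.31), Cidea (1.10, SE 0.33), Cox8b (0.88, SE 0.23) and Acot11 (0.39, SE 0.09) were higher in subcutaneous fat, with limma adjusted p of 0.0059, 0.0132, 0.00723 and 0.00194. Letmd1 and Acot2 were lower, and Ucp1 did not pass (0.58, SE 0.61, limma adjusted p = 0.470; without mouse 60, 0.10, SE 0.56, limma adjusted p = 0.902). Of 17 adipocyte genes 15 were lower in subcutaneous fat, while 14 of 14 T cell, 13 of 15 B cell and 13 of 15 skeletal muscle genes were higher.

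In visceral fat, sex was tested in the same way. Females had 122 higher (0.96%) and 353 lower (2.78%) genes of 12706 tested, and 192 and 307 without mouse 60. Of the 19 thermogenic genes tested, 3 were higher in females and none lower. These were Ucp1 (4.32, SE 0.29, limma adjusted p = 9.61e-06; without mouse 60, 4.55, SE 0.24, limma adjusted p = 1.24e-06), Cidea (1.48, SE 0.30, limma adjusted p = 0.0216) and Dio2 (1.35, SE 0.20, limma adjusted p = 0.00417). Ppargc1a did not pass (0.39, SE 0.25, limma adjusted p = 0.410), and of the 31 respiratory genes none passed in either direction, with a median of 0.07. Elovl6 was the only fatty acid synthesis gene of 17 to pass (1.92, SE 0.46, limma adjusted p = 0.0415). The sexes differ here also in what was sampled, since a female has no epididymal pad, so sex and site cannot be told apart. Ucp1 was under the filter level in every male visceral array, so its difference is a bound only.

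Which genes went with Ucp1 among visceral arrays was then asked with sex held fixed. Ucp1 was under the filter level in all 6 males. The slope thus rested mainly on the 6 females, mouse 60 among them, at 6.71 to 8.87. An absence of calls in this fit cannot show that no gene went with Ucp1. No gene of 12705 (0%) had a slope on visceral Ucp1 that passed (570 had an unadjusted p under 0.05; lowest limma adjusted p = 0.965). The lowest p belonged to B4galt5, at 0.76 log2 units per unit of Ucp1 (SE 0.16).

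The visceral arrays of high and low mice gave the comparison that the choice of mice did not build in. No gene of 12360 (0%) passed with sex as a term, with 1102 at an unadjusted p under 0.05 and a lowest limma adjusted p of 0.272, shared by Ptges, Tmem79, Emp1 and Elovl6. Ucp1 itself was lower in high mice by 0.71 (SE 0.45, limma adjusted p = 0.708) once sex was a term, with -1.38 without mouse 162 and -0.03 without mouse 135. Thermogenic genes were mixed, with 12 of 19 higher in the mean and a median of 0.18, against 45.5% and -0.02 over all genes. Without mouse 60 these were 10 of 18 and 0.08, against 46.4% and -0.02. Otop1, at 1.22 with mouse 60, then no longer passed the filter.

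Fat synthesis genes had higher means in the visceral fat of the mice with Ucp1-high subcutaneous pads. Elovl6 in visceral arrays read 10.18, 11.14, 11.53 and 11.63 in the high mice 162, 60, 173 and 170 and 7.40, 8.03, 8.64 and 8.96 in the low mice 106, 130, 135 and 158. The groups did not overlap, and the difference with sex as a term was 2.42 (SE 0.36, limma adjusted p = 0.272). Acly was 8.73 to 10.79 in low and 11.06 to 11.73 in high mice (2.10, SE 0.49), and Me1 differed by 1.58 (SE 0.34), Acss2 by 1.67 (SE 0.37) and Fasn by 1.23 (SE 0.30), each with a limma adjusted p of 0.389 or 0.390. Over the list 16 of 17 genes had a higher mean, with a median of 0.99, and 30 of 31 respiratory genes did, with a median of 0.35.

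That comparison turned on single mice. Without mouse 158, 22 genes passed, 20 higher and 2 lower, and among them were Elovl6 (2.64, SE 0.21, limma adjusted p = 0.0278), Me1 (1.80, SE 0.17, limma adjusted p = 0.0278), Acly (2.39, SE 0.30, limma adjusted p = 0.0404), Acss2 (1.89, SE 0.23, limma adjusted p = 0.0404) and Fasn (1.40, SE 0.18, limma adjusted p = 0.0404). Without mouse 60 none passed, and the list had the same 16 of 17 and a median of 0.99. Without mouse 135, the only female among the low mice, 7 genes passed, the 5 just named did not, and the list median was 0.58. All low mice were aP2-Tagln2, so in this comparison too the split and genotype cannot be told apart beyond the 2 transgenic high mice, 60 and 173, whose visceral Elovl6 values were 11.14 and 11.53.

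**Figure D5:**
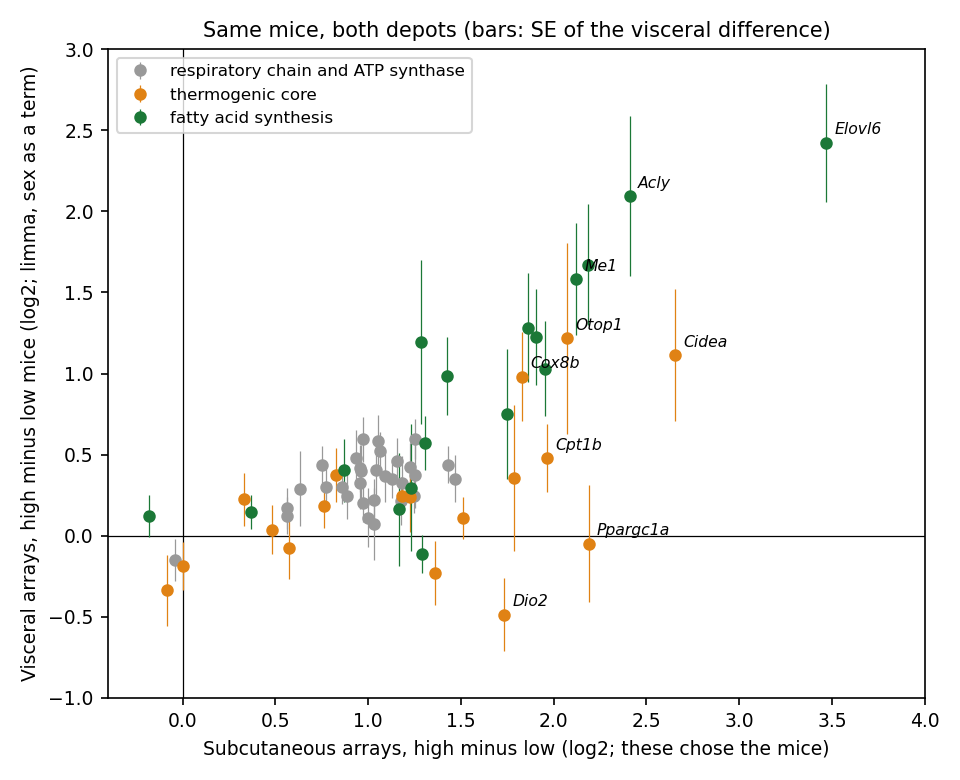
Difference between high and low mice in subcutaneous arrays (horizontal axis, log2, the arrays that chose the mice) and in visceral arrays (vertical axis, log2, limma with sex as a term; bars are 1 SE) for the thermogenic, fatty acid synthesis and respiratory genes tested in both, without Ucp1. Fatty acid synthesis genes such as Elovl6 and Acly are high on both axes, and Ppargc1a and Dio2, apart in subcutaneous fat, lie at or below 0 in visceral fat. Without the sex term these 2 visceral differences were 0.14 and 0.22. Mean visceral Dio2, 4.95 in high and 4.72 in low mice, was under the filter level of these arrays (4.97 to 5.04).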

How the data were processed

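Subcutaneous and visceral adipose tissue of 12 mice was measured on 24 Affymetrix arrays. The deposited values are log2 intensities on an RMA scale, and RMA and limma are named without a version per the submitters' processing notes. Probe sets were named through GEO's platform annotation: of 22142, 19527 had 1 symbol and 2615 several or none, which gave 19494 genes. For the 33 genes with several probe sets, the probe set with the highest mean over the arrays was kept. The number of arrays limits the precision. Genes above the 40th percentile of their array in at least 3 arrays were kept. These were counted over all 12 subcutaneous arrays for the high against low description, and over the arrays compared in each limma test.

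The members and gene lists were chosen with earlier results of these data known. High against low subcutaneous arrays were described by differences and overlap with no test. Other comparisons used limma (version 3.58.1, R 4.3.3; lmFit and eBayes, Benjamini-Hochberg adjusted p under 0.05 over all genes), with sex as a term for the visceral split, and exact permutation tests in SciPy (version 1.17.1, Python 3.11.15) for Ucp1. The fits were tested on simulated data. Arrays of the same number come from the same animal; deviations of its arrays correlated between -0.259 and 0.196, above 0.1 in 5 of 12 mice. Each mouse is its own sample, and the p-values measure the spread between these mice.

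Named genes were the 15 largest differences without overlap per direction, the thermogenic, transcription factor, surface and secreted lists, up to 6 genes of each other list, the 10 highest and 5 lowest correlations with Ucp1, and in tests the genes of lowest p. Epcam, Casq1, Th, Kdr, Clec10a, Cox8a, Cox6a2, Cycs, Sdhd, Cox6a1, Scd1, Cpt1a, Slc2a1 and Hk1 were added after their values were seen. Alternatives covered the filter, a second quantile normalization, median centring, moderation, covariates, the mouse as a block and each mouse left out.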

Additional observations from a re-analysis of the deposited data

Results flagged for a closer look

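Among 140 groups of 4 subcutaneous arrays, 8 had a sample set apart from the other 3 by more than Dixon's critical value; chance alone gives about 1 in 20. Elovl3 was 7.25 in the high mouse 162 against 6.21 to 6.38 in the other high mice. Ucp3 was 7.56 in the high mouse 60 against 6.96 to 7.05. Slamf1, a lymphocyte surface gene, was 5.50 in the high mouse 170 against 4.61 to 4.74, and the B cell list mean of the same mouse was 6.34 against 4.84 to 5.04. Ralgapa2 was 6.63 in the low mouse 106 against 7.03 to 7.11. In the low mouse 158 the triglyceride cycling mean was 9.61 against 8.98 to 9.07, and the adipocyte mean 10.54 against 9.96 to 10.05. The citric acid cycle mean was 9.19 in the high mouse 173 against 9.33 to 9.35.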

How the results depend on the processing

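The counts of genes higher and lower by at least 1 log2 unit without overlap were 402 and 33. They were 297 and 40 after a second quantile normalization, and 520 and 22 with arrays centred on their medians. A stricter filter gave 17 lower; leaving out mice 106 and 130 gave 116 lower, and leaving out mice 60 and 158 gave 338 lower. The aP2-Tagln2 arrays alone gave 778 and 230, the aP2-Tagln2 females alone 1125 and 476, a fold of 1.5 gave 1116 and 149, and the upper 6 against the lower 6 arrays 6 and 0. Leaving out 1 mouse gave 331 to 581 higher and 24 to 361 lower. With 1 mouse left out, limma called 0 to 22 genes in the visceral split (22 without 158, 7 without 135, 3 without 162), 0 to 1 for genotype (0 without 161 or 162), 77 to 315 for sex in subcutaneous fat, 0 to 1247 for genotype by sex, 3602 to 5925 for depot, 0 to 8 for the visceral slope and 189 to 499 for sex in visceral fat. A stricter filter gave 81 genes for sex in subcutaneous fat, and the visceral slope without a sex term 468. With the mouse as a block, the depot comparison of paired arrays called 4581 genes against 5069. A second quantile normalization split the visceral sex calls into 148 higher and 236 lower, against 122 and 353.

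Subcutaneous Ucp1, the value that formed the split, and visceral Ucp1 had r = 0.30 over all 12 mice (permutation p = 0.338; rho = 0.20, permutation p = 0.530; r = 0.213 to 0.520 with 1 left out, 0.18 without mice 60 and 170). Since visceral values part by sex, r within each sex was added after seeing the data, as a description: -0.767 in 6 females, -0.727 without mouse 60, and -0.183 in 6 males. The visceral values of the males were all under the filter level. The visceral split difference of Ucp1 was 1.55 without a sex term, and 0.898 to 2.84 in the exact test with 1 mouse left out. Values that changed sign were as follows, with ranges over 1 mouse left out. Tagln2 ranged from -0.358 to 0.0342 for sex in subcutaneous fat, from -0.407 to 0.303 for genotype by sex (-0.0214 after a second quantile normalization), from -0.257 to 0.712 for the visceral slope (-0.518 with group means) and from -0.0683 to 0.518 for sex in visceral fat. For depot it was 0.00684 after a second quantile normalization. Fabp4 ranged from -0.0308 to 0.000696 for depot and from -0.00659 to 0.0316 for sex in visceral fat (-0.0294 after a second quantile normalization). The visceral slope of Hspa2 was -0.0197 without a sex term. The causes were not tested. The number of arrays and the groups confounded with genotype and sex limit all of these comparisons.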
